A study of Mus musculus with 6 samples.

Results

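The genes described here are 10 regulators of blood stem cells and early T progenitors, 9 of them transcription factors or cofactors and 1 a receptor. They are Kit, Lyl1, Lmo2, Tal1, Hhex, Mef2c, Meis1, Hoxa9, Hoxa10 and Erg. They were chosen by name, as probe sets annotated with that single symbol, and all 10 were found among 19938 named genes. Each had 1 probe set, so no choice among probe sets was needed. The label calls all of them oncogenic transcription factors, but Kit encodes a receptor tyrosine kinase and Lmo2 a bridging cofactor.

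Expression was measured on 6 arrays of sorted GFP-positive mouse T cell acute lymphoblastic leukemia (T-ALL), and the study asked what changes when the zinc finger factor Zfx is deleted. The leukemias, lines 14843, 14844 and 14846, arose from blood progenitors that carried a tamoxifen-activated Cre (Cre-ER) and a loxP-flanked Zfx gene (Zfx fl/y) and were transduced with a retrovirus for active Notch (Notch-IC). Cells of each line grew in sublethally irradiated secondary mice. At day 10 the mice began a 3-day course by gavage of Vehicle (genotype label ZFX flox) or of Tamoxifen at 5 mg daily (ZFX null), and sorting followed 48 h after it ended. With 1 array per line and treatment, a group holds 3 independent leukemias and a line holds 2 arrays of the same leukemia. All groups share the Notch-IC virus, the Cre-ER transgene and the floxed allele. The sources used here give neither the promoter that drives Cre-ER nor the age of the mice. Every Tamoxifen array carries Cre and the floxed allele, so the drug, Cre activity and the deletion cannot be told apart.

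In normal blood development these genes act before T cell commitment. Kit binds stem cell factor and supports stem cells and the earliest thymic progenitors. Tal1 and Lyl1 are related basic helix-loop-helix factors that pair with E proteins and, through the bridging protein Lmo2 and Ldb1, join GATA factors in a DNA-bound complex. Hoxa9 and Hoxa10 are homeobox factors that bind DNA with the TALE partner Meis1, while Hhex, Mef2c and Erg belong to the homeobox, MADS-box and ETS families. Most are switched off as thymocytes commit to the T lineage, and ectopic expression of several of them defines subtypes of human T-ALL.

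The identity of the cells was checked on T cell markers. Cd3e, a subunit of the T cell receptor complex, lay between 13.11 and 13.27 log2 intensity on the 6 arrays, and the surface glycoprotein Thy1 between 13.35 and 13.49. The coreceptors Cd4 and Cd8a lay between 10.53 and 11.98 and between 12.45 and 12.89. Of 15 measured T cell markers, 14 were above the level of genes of other tissues (defined below) on all 6 arrays. The Zfx probe set gave 10.98, 10.90 and 10.72 in Vehicle and 10.96, 10.98 and 10.86 in Tamoxifen arrays (lines 14843, 14844 and 14846), a log2 difference of 0.07 ± 0.05 (SE). Where its probes lie relative to the deleted exons is not given in the sources used here, so it checks no label, and groups are named as labelled.

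Promoter sequences are shown for Lyl1 and Tal1, the only regulators whose signal exceeded the level of genes of other tissues on any array. RefSeq promoter windows, from 250 bases before to 50 after a start site (GRCm38.p6), matched all but Lmo2 and gave 16 windows for 9 genes. The printed 280 bases run from 250 before to 30 after the start, 5′ to 3′ on the gene's strand. Capitals mark 3 motifs searched on both strands: AGGCCT, a core reported for Zfx, the E-box CANNTG bound by Tal1 and Lyl1 dimers, and GATAA, bound by GATA factors.
Lyl1, chr8:84701207-84701486, plus strand: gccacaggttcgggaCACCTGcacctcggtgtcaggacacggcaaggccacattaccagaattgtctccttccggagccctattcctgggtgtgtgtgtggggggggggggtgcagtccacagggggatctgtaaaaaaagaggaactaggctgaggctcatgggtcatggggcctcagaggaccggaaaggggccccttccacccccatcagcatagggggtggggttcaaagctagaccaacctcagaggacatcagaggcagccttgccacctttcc
Tal1 upstream start, chr4:115056176-115056455, plus strand: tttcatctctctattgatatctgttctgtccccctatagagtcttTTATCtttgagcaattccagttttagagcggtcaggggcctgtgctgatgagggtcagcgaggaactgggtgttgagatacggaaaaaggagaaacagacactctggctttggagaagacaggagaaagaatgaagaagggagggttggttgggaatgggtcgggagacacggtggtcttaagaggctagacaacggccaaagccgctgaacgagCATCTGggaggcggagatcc
Tal1 downstream start, chr4:115057561-115057840, plus strand: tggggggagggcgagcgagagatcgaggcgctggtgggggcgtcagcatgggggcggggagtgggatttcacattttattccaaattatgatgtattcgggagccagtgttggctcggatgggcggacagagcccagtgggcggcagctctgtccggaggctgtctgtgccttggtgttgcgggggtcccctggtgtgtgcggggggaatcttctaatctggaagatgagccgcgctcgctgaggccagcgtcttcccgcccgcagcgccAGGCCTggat
The Lyl1 window holds 1 E-box. The upstream Tal1 window holds 1 E-box and 1 GATAA match, and the downstream window holds AGGCCT from base 21 after the start. That was the only AGGCCT among the 16 windows, while 10.3% of 32817 windows of this length in the table hold it. E-boxes lay in 9 of the 16 windows against 72.3% of all windows, GATAA in 5 against 25.4%, and both in 3 against 19.4%. These are matches of letters and show no binding.

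The first question was which regulators are expressed and which are silent in each leukemia. No detection call came with the values, so 2 sets of genes without a role in blood cells served as references. One was 1194 olfactory and vomeronasal receptor genes, whose 95th percentile lay between 6.85 and 6.96 log2 intensity on the 6 arrays. The other was 101 genes restricted to liver, pancreas, eye, muscle, skin, brain and other tissues, chosen after the data had been seen, with a 95th percentile between 7.94 and 8.11. Unless another percentile is named, a gene exceeds a reference on an array when it exceeds that 95th percentile there. Probe sets differ in affinity, so a position against these references describes the signal and does not order the regulators by abundance.

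The signal of most of the 10 regulators was within the range of the chemosensory genes. Of the 10, 3 exceeded the chemosensory receptor genes on all 6 arrays, Lyl1, Lmo2 and Tal1, against 63.1% of all 19938 genes. Erg exceeded them on 1 array, and the other 6 on none. At the 99th percentile of the chemosensory genes 2 remained on all 6 arrays, Lyl1 and Tal1, against 47.4% of all genes. Against the 30th percentile of all genes on the array, Lyl1, Lmo2 and Tal1 were above on all 6 arrays, as were 67.9% of all genes, Erg on 3 and Kit on 2. Only Lyl1 exceeded the 95th percentile of genes of other tissues on all 6 arrays, against 44.5% of all genes, and Tal1 did so on 3. Lyl1 did not clear their 99th percentile on all arrays. That percentile lay between 8.26 and 8.62 and Lyl1 between 8.16 and 8.41. On the Vehicle array of line 14843 they were 8.41 and 8.16, so Lyl1 lay within the upper range of this reference. By the first reference the count was 3 in each of the 3 lines, and by the second it was 1, 2 and 1 in lines 14843, 14844 and 14846. The regulators counted were Lyl1, Lmo2 and Tal1 in every line by the first reference, and Lyl1 in every line plus Tal1 in line 14844 by the second.

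Lyl1, the bHLH factor with roles in stem cells and early T progenitors (chromosome 8, 84701423-84704716, GRCm38.p6), gave 8.16, 8.29 and 8.26 log2 intensity in Vehicle arrays and 8.38, 8.18 and 8.41 in Tamoxifen arrays of lines 14843, 14844 and 14846. Its lowest array, Vehicle of line 14843, was at 8.16 where the 95th percentile of genes of other tissues was 8.11. Tamoxifen arrays were the higher in lines 14843 and 14846 and the lower in line 14844, and the groups overlapped.

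Tal1, its paralog required for blood formation (chromosome 4, 115056426-115071755), gave 7.96, 8.01 and 7.93 in Vehicle and 8.09, 8.05 and 7.96 in Tamoxifen arrays, in the same order of lines. The groups overlapped, although each Tamoxifen array was above the Vehicle array of its line. The 3 arrays above the second reference were both arrays of line 14844 and the Tamoxifen array of line 14843.

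Lmo2, the LIM-only bridge of the complex (chromosome 2, 103957903-103981878), gave 7.34, 7.41 and 7.37 in Vehicle and 7.40, 7.40 and 7.48 in Tamoxifen arrays. It was above the chemosensory genes and below the 95th percentile of genes of other tissues on all 6 arrays.

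Kit, the stem cell factor receptor (chromosome 5, 75574987-75656722), gave 6.69, 6.66 and 6.66 in Vehicle and 6.72, 6.73 and 6.67 in Tamoxifen arrays. Its 6 values spanned 0.06, a smaller span than in all but 2.03% of genes.

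Hoxa9, Hoxa10 and Meis1 were low on every array. Hoxa9, active in stem cells and in many acute leukemias (chromosome 6, 52223097-52227370), gave 6.29, 6.20 and 6.26 in Vehicle and 6.29, 6.24 and 6.24 in Tamoxifen arrays. Hoxa10, its neighbour in the cluster (52231197-52240854), gave 6.63, 6.63 and 6.47, then 6.67, 6.53 and 6.58. Meis1, their DNA-binding partner (chromosome 11, 18880428-19019651), gave 6.12, 6.02 and 6.04, then 6.05, 6.03 and 6.03. For all 3 genes the treatment groups overlapped and no array reached the chemosensory 95th percentile. Hhex, a homeobox factor of stem cells, B cells and endothelium (chromosome 19, 37434841-37440731), gave 6.31, 6.39 and 6.26 in Vehicle and 6.41, 6.55 and 6.44 in Tamoxifen arrays. All 3 Tamoxifen values of Hhex were above all 3 Vehicle values, and its span of 0.29 was larger than in 64.3% of genes.

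Mef2c, a MADS-box factor of lymphoid and myeloid progenitors (chromosome 13, 83504017-83667079), gave 6.54, 6.55 and 6.48 in Vehicle and 6.54, 6.44 and 6.56 in Tamoxifen arrays. Erg, an ETS factor of stem cells and endothelium (chromosome 16, 95359169-95586600), gave 6.68, 6.63 and 6.94, then 6.77, 6.83 and 6.61. The Vehicle array of line 14846 was the highest for Erg and the only one above the chemosensory genes. On that array the summed linear intensity of 8 monocyte and macrophage markers was 3866, against 1599 to 2134 on the other arrays, but 1 gene carried that sum. Ly86, of monocytes and B cells, was at 11.20 log2 intensity there, at 8.90 on the Tamoxifen array of the same line and between 6.18 and 6.34 on the other 4. Without Ly86 the other 7 summed to 1505, just below the 1518 to 1919 of the other arrays. Among them Cd68 was at 8.76 there, within the 8.47 to 8.89 of the other arrays. The monocyte receptor gene Csf1r lay between 6.30 and 6.38 on all 6 arrays, in the range of the chemosensory genes. Likewise 7 B cell markers summed to 1267 there against 752 to 909, carried by Cd79b at 9.56. Without Cd79b the other 6 summed to 510 against 463 to 504. Of the 7, Cd79b and Cd22 were highest there and Ms4a1 was lowest. Cd22 was at 7.20 against 6.70 to 6.85 on the other arrays, and exceeded the chemosensory genes on that array only. Cd79a and Ms4a1 were at 5.81 and 5.56, in the range of the chemosensory genes. Of 8 endothelial markers the sum was 3363 there, within the 2842 to 3397 of the other arrays. Pecam1 was highest there, at 11.19 against 10.84 to 11.17. Without Pecam1 the other 7 summed to 1026, within the 1009 to 1096 of the other arrays. The part of other cells in the Erg value was not tested, and in bulk samples fewer cells of a type and less RNA per cell cannot be told apart.

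**Figure D1:**
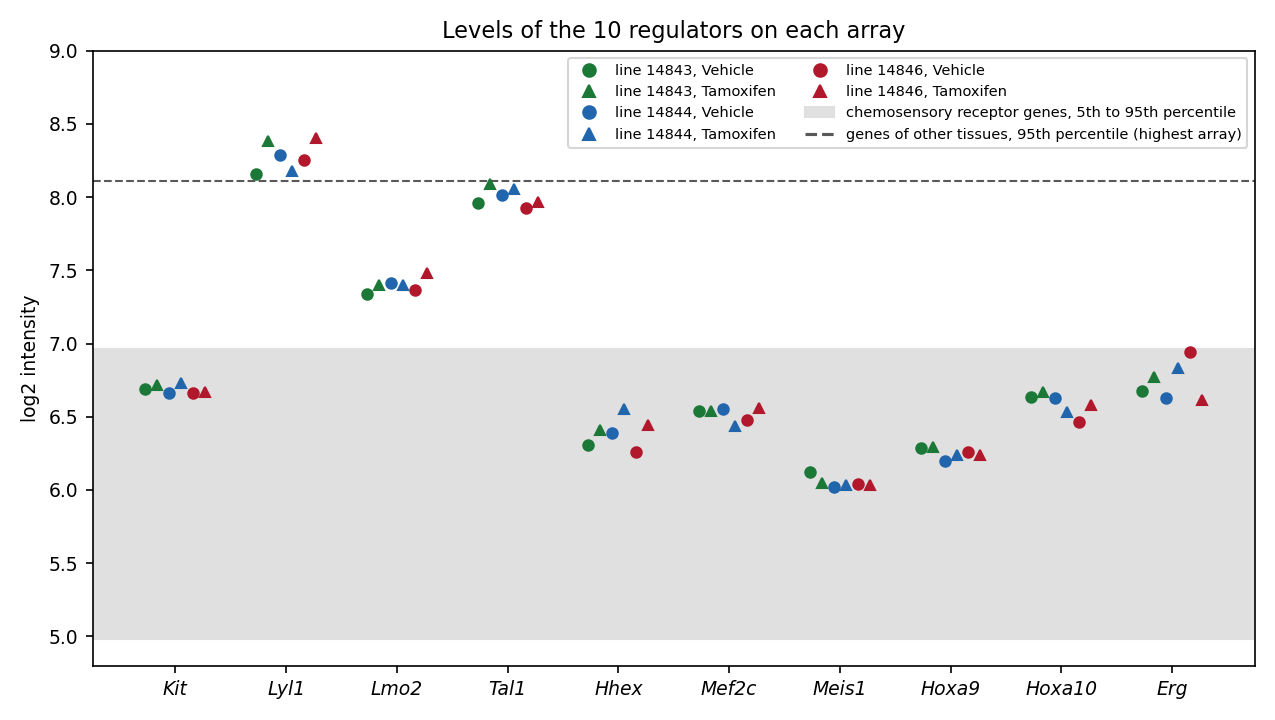
Log2 intensity of each of the 10 regulators (x axis) on each array, with circles for Vehicle, triangles for Tamoxifen and colours for lines; the grey band covers the 5th to 95th percentile of chemosensory receptor genes over the arrays and the dashed line is the highest 95th percentile of genes of other tissues. Lyl1 lies above the dashed line, Tal1 just under it, Lmo2 between the references, and the other 7 within the band.

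The second question was whether Tamoxifen arrays differ from Vehicle arrays. None of the 10 regulators passed the test. By limma with line as a block, 0 of 10 passed an adjusted p of 0.05, against 4.07% of all 19938 genes (161 higher, 650 lower), and adjusted p-values ran from 0.16 to 0.97. At an unadjusted p under 0.05 there was 1 of 10, Hhex, against 20.1% of all genes. The fitted log2 differences lay between -0.02 and 0.15 with a median of 0.03, while the median over all genes was 0.02. Every 95% interval lay within 0.3 on either side of 0, so differences in signal larger than that were outside the intervals for all 10. Of the 10, 6 exceeded the chemosensory genes on 0 arrays and Erg on 1. For these the intervals bound the array signal and may not bound a change in transcript. By the genes of other tissues the same limit holds for Lmo2, which exceeded them on 0 arrays.

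Hhex had the largest difference, 0.15 ± 0.04 (SE), with an interval from 0.04 to 0.26 and a limma adjusted p of 0.16. It was higher by 0.10, 0.16 and 0.18 in lines 14843, 14844 and 14846. Groups that do not overlap, as in Hhex, occurred in 1 of 10 regulators and in 20.3% of all genes, or 11.6% in that direction. A shared direction in all 3 lines occurred in 3 of 10, Kit, Tal1 and Hhex, and in 43.7% of all genes. All 3 were higher, as were 27.4% of all genes. The shares among the regulators were thus below or near those of all genes.

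The intervals of Lyl1, Tal1 and Lmo2 included 0. Lyl1 gave 0.09 ± 0.08 (SE), with an interval from -0.10 to 0.28 that was the widest after that of Erg. Tal1 gave 0.07 ± 0.05, with an interval from -0.05 to 0.18, and Lmo2 by 0.06 ± 0.05, from -0.06 to 0.17. Kit gave 0.03 ± 0.04, from -0.07 to 0.14.

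Hoxa9 and Hoxa10 gave 0.01 ± 0.04 and 0.02 ± 0.06 (SE), which turned to -0.02 and -0.0097 when arrays were centred on their medians, and Meis1 gave -0.02 ± 0.04. Mef2c gave -0.01 ± 0.05. Erg gave -0.01 ± 0.11, the largest error of the 10, with values of 0.10, 0.20 and -0.33 in lines 14843, 14844 and 14846. Without line 14846 it gave 0.15 with a limma adjusted p of 0.30. Mixed directions among lines occurred in 7 of the 10.

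**Figure D2:**
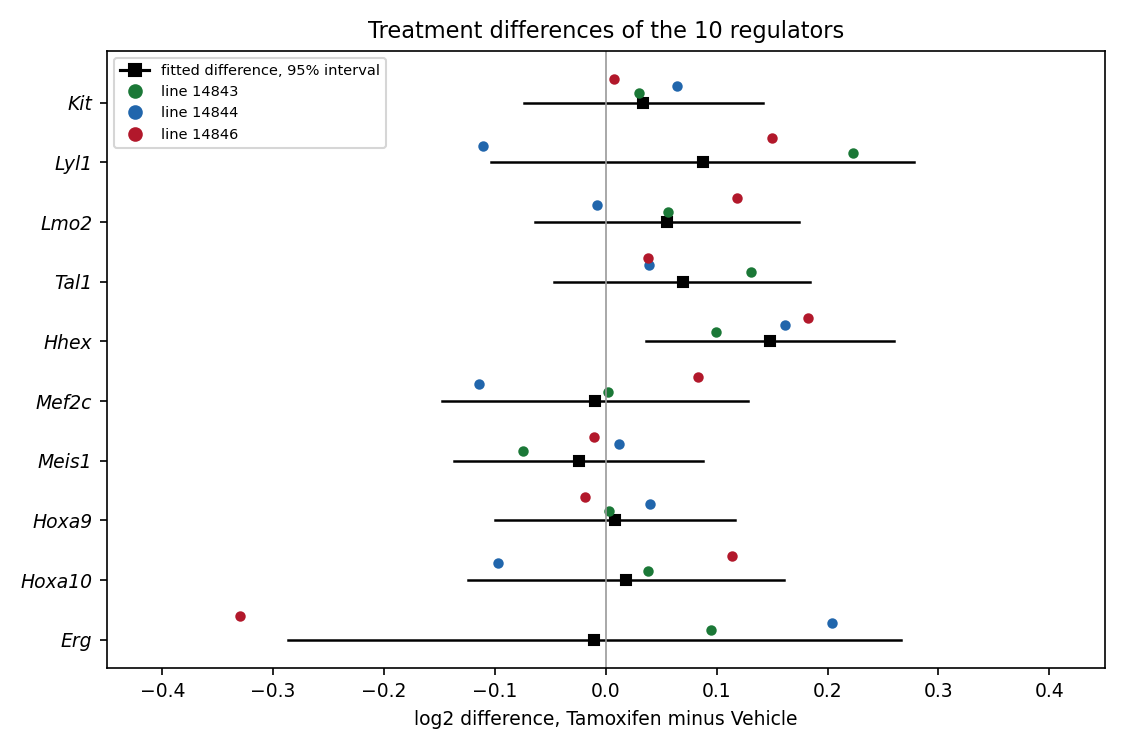
Log2 difference between Tamoxifen and Vehicle (x axis) for each regulator, with squares and bars for the fitted difference and its 95% interval from limma and coloured points for the 3 lines. The intervals of 9 regulators include 0 and that of Hhex runs from 0.04 to 0.26, and Erg has the widest.

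The third question was whether the leukemias differ from each other in these genes. By limma's moderated F test of the line terms, 0 of 10 regulators differed between lines, against 1.98% of all genes, with adjusted p-values from 0.43 to 0.96. At an unadjusted p under 0.05 there were also 0 of 10, against 16.8% of all genes. The range of the 3 line means was largest for Hoxa10, whose 2 arrays per line gave means of 6.65 ± 0.03 for line 14843, 6.58 ± 0.07 for line 14844 and 6.52 ± 0.08 for line 14846 (± SD), and for Hhex, at 6.36 ± 0.07, 6.47 ± 0.11 and 6.35 ± 0.13. Over the 10 regulators the median range of line means was 0.06, and over all genes it was 0.11. None of 30 pairwise line contrasts passed. Among all genes 0.587% differed between lines 14843 and 14844, 2.27% between 14843 and 14846 and 1.07% between 14844 and 14846. For the regulators the intervals of all 30 lay between -0.39 and 0.33, so no order of lines was resolved for any of the 10.

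Variation over all 6 arrays was small too. The span from the lowest to the highest array ran from 0.06 for Kit to 0.33 for Erg, with a median of 0.15. It was 0.14 for the chemosensory genes, 0.17 for the genes of other tissues and 0.23 for all genes. A span of at least 1 log2 unit occurred in 0 regulators and in 3.73% of all genes, so no search for genes of like pattern was made.

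Partners of the regulators fell into bright and dim genes. In the list of Lmo2, Tal1 and Lyl1 partners and relatives, 14 of 20 genes exceeded the genes of other tissues on all 6 arrays, against 44.5% of all genes. Among them were the E proteins Tcf3 and Tcf12, with means over the 6 arrays of 11.58 and 12.98 log2 intensity, the adaptor Ldb1 at 12.31, Gata3 at 11.82, Runx1 at 12.01 and Lmo4, a relative of Lmo2, at 12.62. The 6 that did not were Tal2, Lmo1, Lmo3, Ldb2, Gata1 and Gata2, at means from 5.52 to 7.69. The genes named here and in the next paragraph for their level were picked after their values were seen.

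The other lists were divided in the same way. Of 10 other homeobox and bHLH oncogenes of T-ALL, 8 did not exceed the genes of other tissues on any array, among them Tlx2, Tlx3 and Mycn with means of 7.55, 7.38 and 7.36. Myb, at 12.97, and Nkx2-5, at 8.68, exceeded them on all 6. Of 15 measured genes of the rest of the HOXA cluster and its TALE cofactors, 4 did so, namely Hoxa4, Pknox1, Pbx2 and Pbx3. Of 13 regulators of HOXA genes 11 did so, including Kmt2a at 12.07 and Ezh2 at 12.78. Of 6 measured MEF2 relatives and their deacetylases 5 did so, with Mef2a at 11.68 and Mef2d at 11.71, and of 14 other ETS factors 11, with Ets1 at 12.68 and Fli1 at 10.92. Of 18 measured stem and early T progenitor genes 4 did so: Bcl11a, Slamf1, Gfi1 and the interleukin 2 receptor chain Il2ra, at 13.54. Cd34 and Mecom, markers of stem cells, lay at 6.38 and 6.17.

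**Figure D3:**
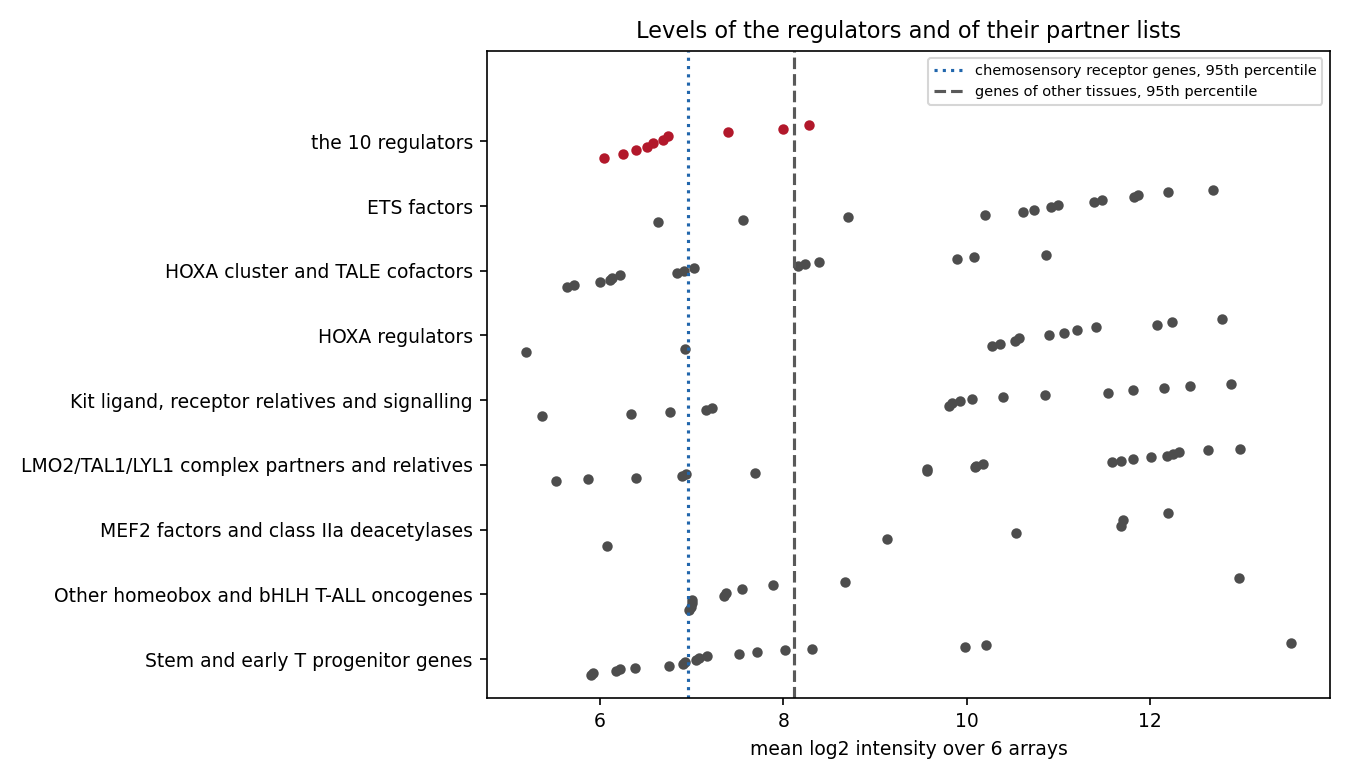
Mean log2 intensity over the 6 arrays (x axis) of the 10 regulators (red) and of the measured genes of 8 lists (grey), 1 point a gene; the vertical spread within a row only separates the points. Dotted and dashed lines are the highest 95th percentiles of the references. All 10 regulators lie below 8.3, while most lists reach above 10.

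Over the 112 measured genes of the 8 partner lists, 4 fell and 0 rose by limma with line as a block. The 4 are 3.6% of the 112, near the 3.26% that fell among all genes, of which 0.808% rose, so the count is no result about the partners. The median log2 difference of the 112 was 0.01, against 0.02 over all genes. The 4 were Id1, Cbfa2t2, Sos1 and Ptpn11, and in each all 3 Tamoxifen values were below all 3 Vehicle values, as in 20.3% of all genes in either direction.

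Id1, an inhibitor that captures the E proteins with which Tal1 and Lyl1 pair, gave 10.09, 10.99 and 10.86 in Vehicle and 9.08, 10.08 and 9.98 in Tamoxifen arrays of lines 14843, 14844 and 14846. The highest Tamoxifen and lowest Vehicle values were nearly equal, and line 14843 was the lowest under both treatments. Id1 fell 1.91-fold, a log2 difference of -0.93 ± 0.05 (SE) with a limma adjusted p of 0.0037. The decrease within lines was alike, -1.01, -0.91 and -0.88. Without line 14844 the adjusted p was 0.054 and without the block 0.30, which end the call. Its relatives Id2 and Id3 gave -0.21 ± 0.07 and 0.61 ± 0.18, with adjusted p-values of 0.21 and 0.15.

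Cbfa2t2, a corepressor of the ETO family, gave 9.99, 9.85 and 9.79 in Vehicle and 9.22, 9.42 and 9.13 in Tamoxifen arrays. It fell 1.54-fold, by -0.62 ± 0.08 (SE) on the log2 scale with a limma adjusted p of 0.022. Its relative Cbfa2t3, a partner of Tal1, gave -0.15 ± 0.08 with an adjusted p of 0.37. The call of Cbfa2t2 was lost without line 14843 or 14844, at adjusted p-values of 0.053 and 0.071. These were the 2 genes of the 20 in the complex list that changed, where 4.07% of all genes did, and the median difference of the list was -0.01.

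Sos1 and Ptpn11 act downstream of Kit and many other receptors, as a Ras exchange factor and the phosphatase SHP2. Sos1 gave 10.08, 10.05 and 9.90 in Vehicle and 9.68, 9.73 and 9.59 in Tamoxifen arrays and fell by -0.34 ± 0.05 (SE) on the log2 scale, with a limma adjusted p of 0.025. Ptpn11 gave 11.06, 10.98 and 11.06, then 10.68, 10.68 and 10.66, and fell by -0.36 ± 0.05 with an adjusted p of 0.024. They were the 2 of 16 genes changed in the list of Kit ligand, relatives and signalling, against 4.07% of all genes, and the median of the list was -0.03. Both lost their calls whichever line was left out, at adjusted p-values from 0.051 to 0.15, and Sos1 lost it without the block, at 0.079. The ligand gene Kitl, at a mean of 5.37 over the 6 arrays, gave -0.05 ± 0.05.

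The other 6 lists had 0 genes changed by treatment at an adjusted p of 0.05 in limma. Their medians lay between -0.06 for MEF2 relatives and deacetylases and 0.05 for other homeobox and bHLH oncogenes and for stem and early T progenitor genes. The smallest p-values in lists with no call by either test belonged to the deacetylase Hdac7, at -0.22 ± 0.05 (SE) with an adjusted p of 0.091, the homeobox gene Nkx2-3, at 0.14 ± 0.05 with 0.25, and the zinc finger repressor Gfi1, at -0.27 ± 0.05 with 0.067.

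Differences between lines were found in 6 of the 112 partner genes, against 1.98% of all genes. Gata3, a GATA factor needed for T cell development, was at 11.74 ± 0.10, 12.21 ± 0.09 and 11.50 ± 0.05 in lines 14843, 14844 and 14846 (± SD of 2 arrays), with a limma adjusted p of 0.032. The contrast of line 14844 with line 14846 passed, at 0.71 with an adjusted p of 0.028, while line 14843 differed from neither beyond the test. Without line 14844 the call of Gata3 ended, at 0.29.

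Meis3, a relative of Meis1, was at 8.72 ± 0.05, 8.07 ± 0.06 and 7.93 ± 0.06, with an adjusted p of 0.016. Line 14843 was above the other lines by 0.65 and 0.79, and these did not differ from each other beyond the test. Id1 was lowest in line 14843, by 0.96 and 0.84, with a limma adjusted p of 0.0081 for the line terms. Both lost their line call without line 14843, at 0.55 and 0.56.

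Mllt3, from the list of regulators of HOXA genes, was at 10.43 ± 0.08, 10.08 ± 0.12 and 10.58 ± 0.12. Elf1, an ETS factor, was at 11.82 ± 0.09, 11.66 ± 0.01 and 12.13 ± 0.03, and Spib, an ETS factor of B cells and plasmacytoid dendritic cells, at 7.34 ± 0.02, 7.23 ± 0.06 and 8.12 ± 0.29. The limma adjusted p-values were 0.033, 0.049 and 0.043. All 3 were higher in line 14846 than in line 14844, and all 3 lost the call without either of those lines, at adjusted p-values from 0.087 to 0.53. Spib was highest, at 8.33, on the Vehicle array of line 14846, the array on which Ly86, Cd79b and Cd22 were also highest. Without Ly86 the monocyte markers summed to 1505 there, just below the 1518 to 1919 of the other arrays. The 8 plasmacytoid and conventional dendritic cell markers summed to 2490 there, within the 2121 to 2882 of the other arrays. Leaving out Tcf4, the other 7 summed to 1559, just above the 1457 to 1555 of the other arrays. The part of other cells in the Spib value was not tested.

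Of 82 measured genes of the 10 marker lists, 0 were called by treatment, against 4.07% of all genes, and 5 by line (6.1%), against 1.98%. S100a8 and Ngp, of neutrophils, were highest in line 14844. S100a8 was 1.15 above line 14843 there, with a limma adjusted p of 0.014, and Ngp 1.78 above it with 0.051. The 9 neutrophil markers summed to 2574 and 3373 there against 1568 to 1759 on the other arrays, and each of the 9 was highest on an array of that line. Without Ngp the other 8 summed to 1786 and 2050 against 1263 to 1316. The monocyte markers Itgam and Lyz2 and the stromal marker Col1a2 also differed, with limma adjusted p-values of 0.030, 0.046 and 0.016. Without line 14844 the calls of S100a8, Ngp, Lyz2 and Col1a2 ended, with limma adjusted p-values between 0.079 and 0.30. Leaving out line 14843 ended those of Itgam, Lyz2 and Ngp, with values between 0.078 and 0.99. Line 14844 was also the highest for Gata3 and the lowest for Mllt3 and Elf1, and the part of neutrophils in these was not tested. Mast cells and megakaryocytes express several of the regulators. In their lists 0 of 8 and 0 of 5 measured genes were above the genes of other tissues on all 6 arrays, against 44.5% of all genes. The neutrophil list also had 0 of 9, so 0 by this measure does not show that a cell type is absent. In the endothelial, erythroid and dendritic cell lists 2 of 8, 1 of 6 and 3 of 8 were. Above the chemosensory genes on all 6 arrays were 2 of 8 mast cell and 3 of 5 megakaryocyte genes, against 63.1% of all genes. The part of other cells in the signal of the regulators was not tested.

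**Figure D4:**
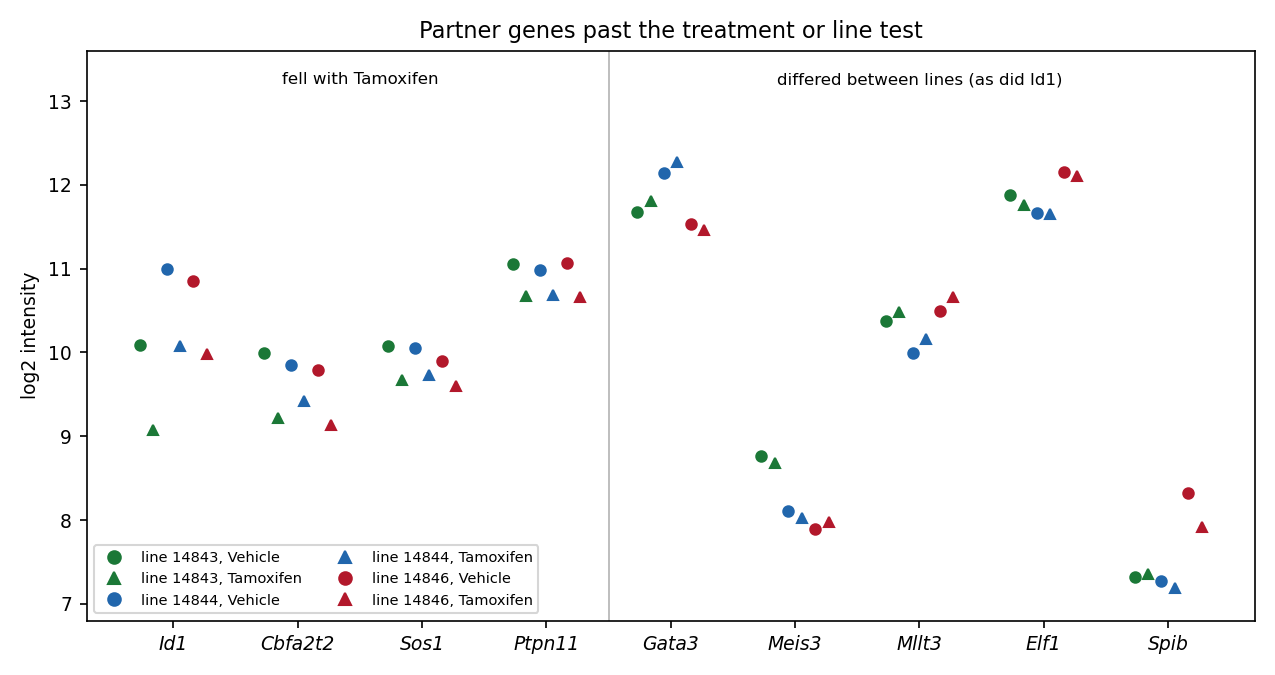
Log2 intensity on each array (y axis) of the 9 partner genes past the treatment or the line test (x axis), with circles for Vehicle, triangles for Tamoxifen and colours for lines. For Id1, Cbfa2t2, Sos1 and Ptpn11 each triangle lies below the circle of its line, and for Gata3, Meis3, Mllt3, Elf1 and Spib the lines separate more than the treatments.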

How the data were processed

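Total RNA was labelled with biotin (Ambion WT kit, 200 ng), per the labels' protocols. The deposited values are linear probe set intensities made by the authors; the submitters' processing notes name RMA and Affymetrix Expression Console 1.1. RMA equalises the arrays' distributions, so overall shifts in signal are not measured. Median intensity lay between 201.6 and 208.3. Arrays have no read depth, and their number limits the precision.

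Of 35556 probe sets, 21789 had 1 symbol in the platform annotation, 1621 had several and 12146 were unnamed here. Entrez identifiers matched 21698 in RefSeq, with 0 symbols changed. The probe set with the highest mean stood for a gene. The log2 values of all 19938 genes were fitted with limma 3.58.1 (R 4.3.3), with line and treatment as terms, two-sided tests and Benjamini-Hochberg adjustment over all genes. No filter on dim genes was used, since 6 of the 10 regulators lie below the 30th percentile, 6.70. Each gene had 2 residual degrees of freedom and moderation added 3.22. The block follows the study's design, and the 2 arrays of a line deviated together from their groups, with correlations of 0.62, 0.65 and 0.66. The model was tested on simulated data for this comparison over 19938 genes, with independent normal noise and known shifts in a random subset. Of genes changed by 0.3 on the log2 scale 56% were called by the treatment test, and of those changed by 0.5, 98%. Of all calls by that test 10.2% were false. In data simulated with shifts in 1 line, the line test called 18% of genes shifted by 0.3 and 98% of those shifted by 0.5. The shifts were added in full at every signal level, so recovery for dim genes was not tested separately.

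The rule named the 10 regulators, Zfx, called genes of 8 partner and 10 marker lists (up to 3 per test), or the one with the smallest p, and fixed T cell markers, of which Lck had no probe set with a single symbol. Other genes were named after their values were seen. The regulators and lists were chosen with earlier results of these data known. Alternatives were no block, the filter, eBayes with trend and robust settings, median centring, averaged probe sets and leaving out each line.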

Additional observations from a re-analysis of the deposited data

How the results depend on the processing

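No regulator passed the treatment test under any of its 8 alternatives or the line test under any of its 7, where the lowest limma adjusted p-values were 0.11 and 0.38; under the filter only 4 of the 10 were tested. Signs of differences near 0 turned in 7 of 74 cases: after median centring Hoxa9 gave -0.02 and Hoxa10 -0.0097, and over fits without 1 line Meis1 ran from -0.0429 to 0.0005, Mef2c from -0.0562 to 0.0429, Hoxa9 from -0.0082 to 0.0214, Hoxa10 from -0.0296 to 0.0760 and Erg from -0.1174 to 0.1495. The count of all genes changed by treatment was 811, with 246 in the fit with no replicate block (where 0 regulators passed, with a lowest adjusted p of 0.34), and ran from 24 (without line 14844) to 677 without 1 line. The count of genes differing between lines was 395 and ran from 145 to 342. Each such fit has 2 arrays fewer, and any other cause was not tested. Regulators above background fell from 3 to 1 in lines 14843 and 14846 when genes of other tissues replaced chemosensory genes, a reference added after the data were seen. Dimness limits these results, since 7 of the 10 sit in the range of the chemosensory genes, Erg on all but 1 array. By the genes of other tissues the limit is wider, with 8 of the 10 above them on no array and 1 on all 6.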
